A study of Mus musculus with 6 samples.

Results

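The subunit genes of the mitochondrial respiratory chain and ATP synthase were examined in bulk RNA sequencing of mouse kidney. Members were the protein-coding genes whose symbols carry the names of the subunits of complexes I to V, and 96 of the 17550 genes of the deposited table qualified. Of these, 83 are encoded in the nucleus and 13 in the mitochondrial genome. Complex I had 36 nuclear and 7 mitochondrial-genome members, complex II had 4 nuclear members, complex III had 9 and 1, complex IV had 17 and 3, and complex V had 17 and 2. The study compared 3 libraries of genotype Control with 3 libraries of genotype KC-Tie2. KC-Tie2 is known as a psoriasis model: Tie2, a receptor tyrosine kinase, is overexpressed from a transgene in skin keratinocytes, so the kidney is not the site the transgene is directed to. Kidneys of both genotypes were perfused with saline, and total RNA was turned into poly(A)-selected libraries. The labels give no strain, sex, age, litter or batch, name no treatment beyond the perfusion, and leave unsaid if each library came from its own animal, so p-values measure only the spread between these samples, which may be technical. All values are normalized counts as deposited unless another scale is named, and depth before normalization was 18800000 to 29500000 estimated counts per library. All 96 members passed the filter for testing, a mean of at least 10 normalized counts over the 6 libraries.

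The respiratory chain passes electrons from NADH and succinate to oxygen and pumps protons across the inner mitochondrial membrane, and ATP synthase lets them flow back to make ATP. Complex I takes electrons from NADH, complex II from succinate, complex III passes them to cytochrome c, complex IV reduces oxygen, and complex V is the ATP synthase. Subunits made inside the mitochondrion from its own genome lie in the membrane arm of complex I and the catalytic centres of complexes III and IV. The proton channel of complex V contains such subunits as well. All subunits of complex II and most small accessory subunits come from nuclear genes. Kidney tubules, above all the proximal tubule and the thick ascending limb, are rich in mitochondria and depend on oxidative metabolism for transport.

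Promoter sequence is shown for 5 nuclear members because coordinated expression of the subunit genes has been tied to nuclear respiratory factor 1 (NRF1). A link between the motifs and the values of these libraries was not tested. RefSeq promoters (build GRCm38.p6, 250 bases before to 50 bases after each start) were found for 68 of the 83 nuclear members, as 73 promoters. The NRF1 motif (GCGCA, any base, then GCGC), searched on both strands, was present in 18 of the 73 (24.7%), in 4.60% of all 32851 promoters and in 6.38% of the promoters of protein-coding genes. The motif CCGGAAG of the ETS family, which includes the alpha subunit of the GA-binding protein, was present on either strand in 17 of the 73 (23.3%), in 8.86% of all promoters and in 11.6% of those of protein-coding genes. The motifs do not overlap in their letters, and 4 member promoters held both. By complex, the NRF1 motif was in 8 of 34 promoters of complex I, 2 of 3 of complex II, 1 of 5 of complex III, 1 of 13 of complex IV and 6 of 18 of complex V. The 160 bases before the start are printed 5′ to 3′ on the gene's strand, with NRF1 matches in capitals. Atp5k and Cox7a1 had the lowest p-values of the nuclear members. Ndufs5 and Ndufa11 are complex I members with separated groups and a match, and Sdha stands for complex II with 3 matches. Other complex I members with separated groups, Ndufb8, Ndufb10, Ndufb7, Ndufa3, Ndufa7 and Ndufb1, had no NRF1 match in their promoters. The printed promoters therefore hold a match more often than those of the members as a whole. Cox7a1 had no match in this window. A match is a match of letters and not a measured binding site.
Atp5k (chr5:108434400-108434559, minus strand): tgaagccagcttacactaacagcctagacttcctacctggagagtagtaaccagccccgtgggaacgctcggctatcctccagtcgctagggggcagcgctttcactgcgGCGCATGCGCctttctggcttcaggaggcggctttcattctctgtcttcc
Ndufs5 (chr4:123718187-123718346, minus strand): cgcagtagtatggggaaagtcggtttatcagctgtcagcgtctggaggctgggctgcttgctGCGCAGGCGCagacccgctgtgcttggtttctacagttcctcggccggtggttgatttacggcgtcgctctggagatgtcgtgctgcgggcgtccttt
Ndufa11 (chr17:56717602-56717761, plus strand): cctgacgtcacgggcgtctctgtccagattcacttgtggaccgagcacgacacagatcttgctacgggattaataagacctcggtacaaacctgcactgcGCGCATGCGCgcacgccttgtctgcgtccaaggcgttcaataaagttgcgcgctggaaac
Sdha (chr13:74350241-74350400, minus strand): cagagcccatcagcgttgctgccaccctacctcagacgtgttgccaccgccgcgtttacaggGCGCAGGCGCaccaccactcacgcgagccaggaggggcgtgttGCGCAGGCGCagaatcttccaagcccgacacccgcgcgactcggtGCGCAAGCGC
Cox7a1 (chr7:30184011-30184170, plus strand): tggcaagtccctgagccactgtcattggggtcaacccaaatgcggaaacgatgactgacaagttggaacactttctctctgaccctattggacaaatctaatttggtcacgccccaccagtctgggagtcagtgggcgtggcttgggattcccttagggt

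A second set of sequences shows where a count cannot be assigned to a member alone. Pseudogenes listed in the table matched members over at least 80% of their own length at 95% identity or more. There were 11 such copies of 9 of the 13 mitochondrial-genome members, 7 of them in a nuclear insertion on chromosome 1, and 28 copies of 19 of the 83 nuclear members. The coding start of mt-Co2, which carries the copper centre of complex IV that takes electrons from cytochrome c, is identical in its copy Gm28661 over all 681 compared bases. The coding start of mt-Nd3, a membrane subunit of complex I, differs from its copy Gm28438 by T3C alone over 345 compared bases (positions counted from 1 at the first coding base, capitals mark the difference). The coding sequence of Atp5g2, a gene for the c subunit of the ATP synthase rotor, is identical to that of its copy Gm10175 over all 441 bases. The first 60 coding bases are shown, from the GENCODE M21 transcripts.
mt-Co2 and Gm28661: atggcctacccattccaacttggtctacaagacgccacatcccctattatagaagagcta
mt-Nd3: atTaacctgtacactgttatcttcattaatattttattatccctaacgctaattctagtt
Gm28438: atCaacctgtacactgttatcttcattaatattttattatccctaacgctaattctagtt
Atp5g2 and Gm10175: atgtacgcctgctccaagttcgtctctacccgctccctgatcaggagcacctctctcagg

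No respiratory chain subunit passed the genome-wide test, in either direction. With limma and Benjamini-Hochberg adjustment over the 17539 genes tested, 0 of 96 members had an adjusted p under 0.05, against a background of 1.69% of all genes (0.855% higher and 0.838% lower in KC-Tie2). At an unadjusted p under 0.05, 22 members were higher and 1 was lower, where the background was 7.57% higher and 7.77% lower. In the authors' deposited table, 0 of 96 members had an FDR under 0.05 against 3.91% of all genes, 21 had an unadjusted p under 0.05 with a ratio above 1, and 2 with a ratio below 1. The lowest FDR there was 0.0518, for Cox7a1. The 95% interval of the members had a median width of 0.34 on the log2 scale, compared with 0.55 over all genes tested, while low-level members had far wider ones, up to -4.50 to 4.50 for Cox8b. A call requires a change larger than most of those described here, and the absence of a call does not show that a member was equal in both genotypes.

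The members leaned in opposite directions by genome of origin. Among the 83 nuclear members the log2 fold change was above 0 in 66 and below 0 in 17, with a median of 0.09, beside a median of 0.01 over the 13617 nuclear protein-coding genes tested, of which 52.9% were above 0. All 13 mitochondrial-genome members were below 0 as deposited, with a median of -0.11. Quantile normalization put their median at 0.00 with 6 of them above 0. It sets values from ranks within each library, so it can remove a shift shared by these highly abundant genes and cannot decide if there is one. mt-Co3 was above 0 with TMM scaling and, like mt-Co2, with scaling to the nuclear sum and voom. In 27 nuclear members (32.5%) every KC-Tie2 library was above every Control library, and in 0 was every KC-Tie2 library below, where the background over all genes was 9.96% higher and 10% lower. Nuclear members are short, at a median exon length of 934 bases against 2929 over all genes tested. Separated groups with KC-Tie2 higher were also more frequent in other short genes, and shares by length class are given further on. In 1 mitochondrial-genome member, mt-Nd6, every KC-Tie2 library was below every Control library. Members are not independent of each other, since they moved together between libraries of a genotype: Control replicate 2 was the lowest of the 6 libraries for 58 of the 83 nuclear members, and KC-Tie2 replicate 2 was the highest for 40. Without Control replicate 2 the nuclear median was 0.04.

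**Figure D1:**
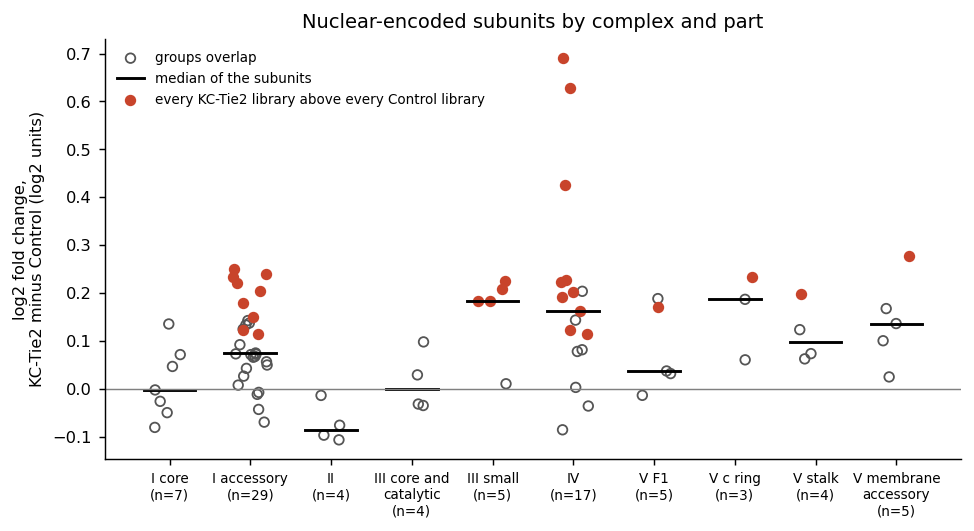
Log2 fold change (KC-Tie2 minus Control, log2 units, vertical axis) of each of the 83 nuclear-encoded subunits, grouped by complex and part (horizontal axis). Filled points are the 27 subunits with every KC-Tie2 library above every Control library, open points have overlapping groups, and bars are medians, which lie at 0.18 for the small subunits of complex III, 0.16 for complex IV and -0.09 for complex II.

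In complex I, the catalytic core and the accessory shell are described apart, and no test of their difference was run. The 7 nuclear core subunits, which hold the flavin and iron-sulfur clusters, had a median log2 fold change of 0.00, with 3 above and 4 below 0 and 0 with separated groups. The 29 accessory subunits had a median of 0.07, with 25 above 0 and 9 (31.0%) with every KC-Tie2 library above every Control library. The background was 9.96% over all genes tested. It was 15.8% over other nuclear protein-coding genes of 751 to 1000 bases at a mean of at least 250, the length class of their median. Among the core subunits, Ndufv1, the flavoprotein that takes electrons from NADH, had 4401, 4044 and 4423 normalized counts in Control replicates 1 to 3 and 3949, 4295 and 4182 in KC-Tie2 replicates 1 to 3, which overlap. Its log2 fold change was -0.05 (95% interval -0.20 to 0.10). Ndufs1, the largest iron-sulfur subunit, had 5350, 4705 and 5192 in Control and 4484, 4879 and 5049 in KC-Tie2, a log2 fold change of -0.08 (-0.25 to 0.09). The core thus lay within the spread of the libraries.

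The accessory subunits with the largest differences all belong to the part of complex I outside the electron path. Ndufb8 had 2810, 2828 and 2918 in Control and 3208, 3729 and 3268 in KC-Tie2, so the lowest KC-Tie2 library exceeded the highest Control library. The log2 fold change was 0.25 ± 0.07 (SE; limma, adjusted p = 0.119). Ndufs5 had 613, 611 and 610 in Control, which is a spread of 1.19 (SD, n = 3), and 751, 733 and 685 in KC-Tie2. This is a log2 fold change of 0.24 ± 0.08 (SE; limma, adjusted p = 0.147). Ndufb10 had 1311, 1302 and 1356 in Control and 1457, 1617 and 1597 in KC-Tie2, a log2 fold change of 0.23 ± 0.07 (SE; limma, adjusted p = 0.119). Ndufa11, which sits in the membrane arm, had 989, 1060 and 1013 in Control and 1186, 1203 and 1180 in KC-Tie2, a log2 fold change of 0.22 ± 0.07 (SE; limma, adjusted p = 0.127). These 4 had separated groups and did not pass the adjusted threshold. At the other end, Ndufb4 had 828, 764 and 1029 in Control and 797, 824 and 857 in KC-Tie2, with a log2 fold change of -0.07, and 60.6% of the summed normalized counts of Ndufb4 and its identical copy Ndufb4c lay at the copy.

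A ratio inside each library does not depend on how the libraries were scaled. The summed accessory subunits of complex I were 1.94, 1.97 and 1.98 times the summed nuclear core subunits in Control replicates 1 to 3 and 2.15, 2.09 and 2.10 times in KC-Tie2 replicates 1 to 3. The groups did not overlap, at 1.96 ± 0.02 and 2.11 ± 0.03 (SD, n = 3 each). No test is given for this ratio because the members were chosen with results of these data known.

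Complex II, succinate dehydrogenase, had all 4 members below 0 as deposited, at a median of -0.09, while Sdhd was above 0 with quantile normalization, scaling to the nuclear sum and voom. It joins the citric acid cycle to the chain and has no mitochondrial-genome subunit. Sdha, the flavoprotein that oxidises succinate, had 13951, 12452 and 13365 in Control and 11742, 12843 and 12580 in KC-Tie2, a log2 fold change of -0.10 (95% interval -0.26 to 0.07; limma, adjusted p = 0.607). Sdhb, the iron-sulfur subunit, had 4301, 3906 and 4546 against 3795, 4148 and 4140, a log2 fold change of -0.08. The membrane anchors were Sdhc, with 5232, 4692 and 5133 against 4309, 4626 and 5062 (log2 fold change -0.11), and Sdhd, with 3687, 3320 and 3807 against 3393, 3729 and 3577 (log2 fold change -0.01). The groups overlapped for all 4 genes. KC-Tie2 replicate 1 was the lowest library for Sdha, Sdhb and Sdhc. Without it the median of the 4 genes was -0.04, and Sdhd was at 0.02.

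Complex III was divided in the same manner, again with no test of the difference and 0 members called. The 4 nuclear subunits that carry redox centres or form the core (Cyc1, Uqcrc1, Uqcrc2 and Uqcrfs1) had a median log2 fold change of 0.00, from -0.04 for the Rieske protein Uqcrfs1 to 0.10 for cytochrome c1, Cyc1. The 5 small subunits had a median of 0.18, and in 4 of them (80%) every KC-Tie2 library was above every Control library. The background was 9.96% over all genes and 21.3% over other genes of 501 to 750 bases, the length class of their median. Uqcrq had 3048, 2863 and 3403 in Control and 3505, 3834 and 3529 in KC-Tie2, a log2 fold change of 0.23 ± 0.08 (SE; limma, adjusted p = 0.186). Uqcr11, the smallest subunit, had 1502, 1468 and 1684 against 1700, 1864 and 1807, a log2 fold change of 0.21 ± 0.07 (SE; limma, adjusted p = 0.197). Uqcr10 had 2873, 2513 and 2886 against 2976, 3253 and 3154, a log2 fold change of 0.18 ± 0.07 (SE; limma, adjusted p = 0.265). Uqcrh, the hinge protein beside cytochrome c1, was at 0.18. The exception was Uqcrb at 0.01, for which 35.4% of the summed normalized counts of the gene and its 3 copies lay at the copies. The ratio of summed small to summed core subunits was 0.497, 0.515 and 0.523 in Control against 0.569, 0.576 and 0.575 in KC-Tie2, without overlap.

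**Figure D2:**
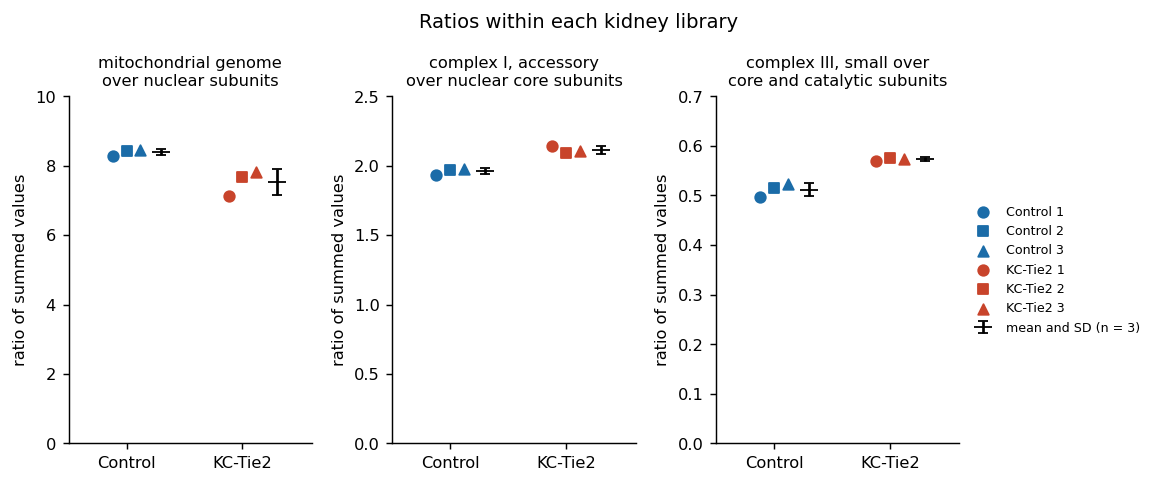
Ratios of summed normalized counts (vertical axes, from 0) in each library of Control and KC-Tie2 (horizontal axes), with the mean and SD of 3 libraries beside the points. The ratio of mitochondrial-genome to nuclear subunits is 8.29 to 8.45 in Control and 7.12 to 7.81 in KC-Tie2, while the accessory-to-core ratio of complex I and the small-to-core ratio of complex III are higher in every KC-Tie2 library.

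Complex IV, cytochrome c oxidase, had the highest nuclear median, 0.16, with 15 of 17 members above 0. In 10 of the 17 (58.8%) every KC-Tie2 library was above every Control library. The background was 9.96% over all genes and 21.3% over other genes of 501 to 750 bases, the length class of their median. The nuclear subunits of complex IV surround the 3 mitochondrial-genome subunits and several exist as tissue-specific isoforms. The ubiquitous isoforms carry nearly all of the signal in kidney: per kilobase of exon, Cox4i1 averaged 12188, Cox8a 9076 and Cox6a1 8734 normalized counts, whereas Cox7a1 averaged 286, Cox6b2 69.6, Ndufa4l2 54.0 and Cox8b 51.5. Cox6a1 (mm39 chr5:115483701-115487040) had 4680, 4387 and 4721 in Control and 5317, 5563 and 5254 in KC-Tie2, a difference larger than the spread within either group. Its log2 fold change was 0.23 ± 0.07 (SE; limma, adjusted p = 0.123), and quantile normalization brought it under the threshold (adjusted p = 0.0337). Cox5a, Cox5b and Cox7b, which are structural subunits, were at 0.20, 0.22 and 0.19, each with separated groups. Cox4i1, which starts assembly with the mitochondrial-genome subunit mt-Co1, had 9194, 8805 and 8785 against 9483, 10127 and 9550, a log2 fold change of 0.12. Cox6b1 was at 0.11 with separated groups, and Cox8a (0.20) and Cox7a2 (0.08) had overlapping ones. Cox7a2l, a supercomplex assembly factor related to Cox7a2, was at -0.09, and Ndufa4, now counted as a complex IV subunit, was at -0.04. Cox5b-ps carries the protein-coding label in the table and so counts as a member, and it had 364, 410 and 418 against 427, 481 and 426.

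The low-level isoforms of complex IV gave the largest fold changes and the widest intervals. Cox7a1, the heart and muscle isoform (mm39 chr7:29883569-29885503), had 140, 99.9 and 120 normalized counts in Control and 207, 193 and 157 in KC-Tie2. The KC-Tie2 mean was 1.55 times the Control mean in the authors' deposited table, and the log2 fold change was 0.63 ± 0.17 (SE; 95% interval 0.26 to 1.00; limma, adjusted p = 0.0931). Without KC-Tie2 replicate 3 its adjusted p was 0.0489, and over all alternatives it ran to 0.398. Ndufa4l2, a paralog of Ndufa4 that is induced in low oxygen, had 30.5, 42.9 and 40.6 against 83.3, 50.8 and 54.4. Its log2 fold change was 0.69 ± 0.26 (SE; limma, adjusted p = 0.225), and KC-Tie2 replicate 1 stands above the others. Without both libraries with high adipocyte markers, described next, Ndufa4l2 was at 0.33 (limma, adjusted p = 0.865). Cox6b2, known from testis, had 54.6, 47.9 and 31.1 against 62.2, 57.5 and 56.3, a log2 fold change of 0.43 (-0.12 to 0.97). Without Control replicate 3, Cox6b2 was at 0.19. All 3 had separated groups at these low levels.

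Cox8b, an isoform of heart, muscle and brown fat, followed the library and not the genotype. It had 72.5, 0 and 0 in Control replicates 1 to 3 and 37.7, 0 and 0.907 in KC-Tie2 replicates 1 to 3. The 5 adipocyte markers Adipoq, Plin1, Cidec, Ucp1 and Cidea were all in the table, and their summed level was 1640, 102 and 40.6 in Control and 819, 13.3 and 43.6 in KC-Tie2. Ucp1, the uncoupling protein of brown fat, had 442, 10.7 and 0 against 138, 2.50 and 0.907. The first replicate of each genotype was therefore high in Cox8b and in all 5 markers. None of the 6 skeletal muscle markers looked for was in the table. Cox7a1 was also highest in the first replicate within each genotype, at 140 in Control and 207 in KC-Tie2. Without both of these libraries Cox7a1 had 99.9 and 120 in Control and 193 and 157 in KC-Tie2, a log2 fold change of 0.66 (limma, adjusted p = 0.398). The part of adipocyte RNA in Cox7a1 was not tested further.

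**Figure D3:**
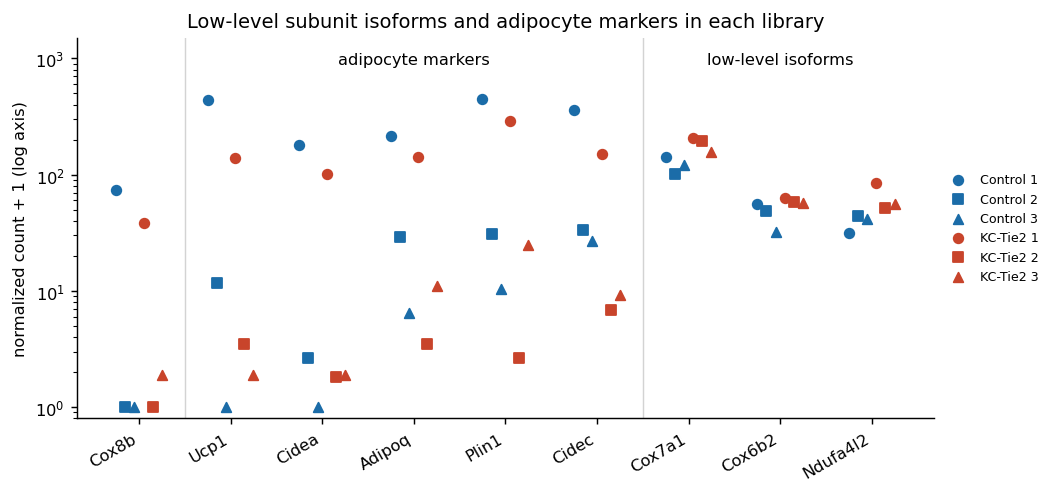
Normalized count plus 1 (log axis) of Cox8b, the 5 adipocyte markers and 3 low-level isoforms (horizontal axis) in each library, marked by genotype and replicate. Cox8b and the adipocyte markers are high in Control replicate 1 and KC-Tie2 replicate 1, while Cox7a1 separates the genotypes at 99.9 to 140 against 157 to 207.

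Complex V, the ATP synthase, had 16 of 17 nuclear members above 0, with a median of 0.12. In 4 of the 17 (23.5%) every KC-Tie2 library was above every Control library. The background was 9.96% over all genes and 13.3% over other genes of 1001 to 1500 bases, the length class of their median. Atp5k, the e subunit that joins synthase dimers at the crista edge (mm39 chr5:108581110-108582314), had the lowest p of all members. It had 866, 917 and 883 in Control and 1085, 1109 and 1039 in KC-Tie2, or 889 ± 25.8 and 1078 ± 35.2 (SD, n = 3 each). Its log2 fold change was 0.28 ± 0.07 (SE; 95% interval 0.13 to 0.43; limma, adjusted p = 0.0719). It passed the threshold with library weights (adjusted p = 0.0385), and its adjusted p reached 0.504 in the least favourable alternative. In the catalytic F1 head, Atp5a1 (alpha) was at 0.04, Atp5b (beta) at -0.01 and Atp5c1 (gamma) at 0.03, while the small Atp5d (delta) and Atp5e (epsilon) were at 0.17 and 0.19. Atp5b was the most abundant nuclear member per kilobase of exon, at 21952 normalized counts. In the stalk, Atp5o, the protein that ties the head to the stator, had 3168, 2874 and 3253 against 3360, 3809 and 3493, a log2 fold change of 0.20 ± 0.08 (SE; limma, adjusted p = 0.230). The 5 membrane accessory subunits had a median of 0.14.

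The c subunit of the rotor is made from 3 genes with different leader peptides and the same mature protein. Atp5g1 had 1279, 1267 and 1334 in Control and 1425, 1560 and 1578 in KC-Tie2, a log2 fold change of 0.23 ± 0.07 (SE; limma, adjusted p = 0.122). Atp5g3, the most abundant of them, had 5599, 5100 and 5730 against 5399, 5964 and 5760, a log2 fold change of 0.06. Atp5g2 had only 24.1, 28.2 and 19.8 against 25.7, 31.9 and 24.7, but its copy Gm10175, identical over the coding sequence shown above, had 2447, 2236 and 2627 against 2418, 2640 and 2450. The copy thus held 99.0% of the summed normalized counts of the pair, and the level of Atp5g2 is uncertain by that margin. For Atp5g1 the copy Gm10039 held 42.9%, at 963, 875 and 979 against 1097, 1232 and 1186, and the sum of gene and copy was also separated, at 2142 to 2314 in Control and 2521 to 2792 in KC-Tie2.

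**Figure D4:**
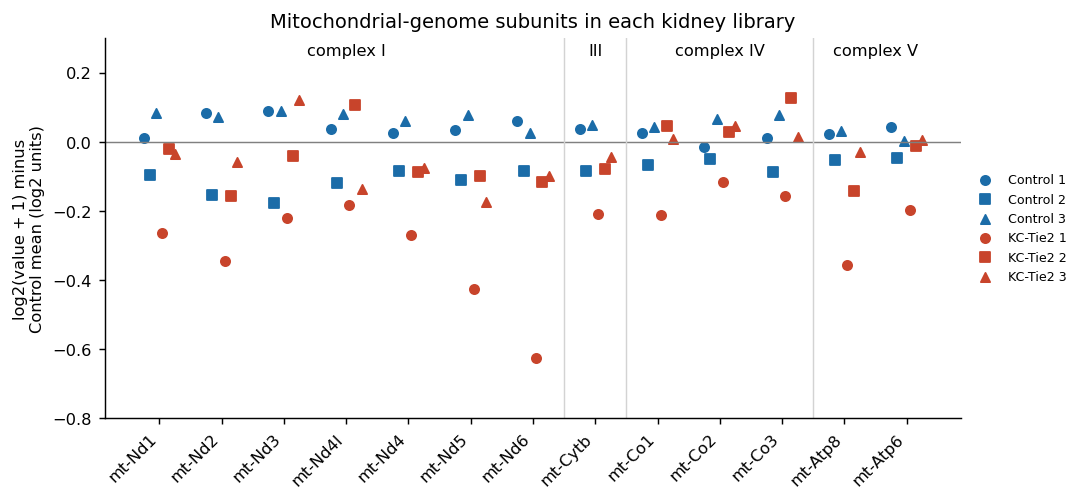
Difference of each library from the Control mean on the log2(value + 1) scale (vertical axis, log2 units) for the 13 mitochondrial-genome subunits (horizontal axis, by complex). KC-Tie2 replicate 1 is the lowest library for all 13 subunits, and mt-Nd6 is the subunit in which all 3 KC-Tie2 libraries lie below all 3 Control libraries. That separation is narrow, with 34226 in KC-Tie2 replicate 3 against 34583 in Control replicate 2.

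The 13 mitochondrial-genome subunits were lower on average in KC-Tie2, and this rested largely on 1 library. KC-Tie2 replicate 1 was the lowest of the 6 libraries for all 13. Without it the median log2 fold change moved from -0.11 to -0.03, and mt-Nd3, mt-Co1, mt-Co2 and mt-Co3 were above 0, and mt-Nd6 was at -0.11. Among the 7 complex I subunits, which form the proton-pumping membrane arm, mt-Nd6 had 38183, 34583 and 37311 in Control and 23748, 33830 and 34226 in KC-Tie2. Its log2 fold change was -0.28 ± 0.13 (SE; 95% interval -0.58 to 0.02; limma, adjusted p = 0.360). It is the sole protein-coding gene on its strand of the mitochondrial genome, and it shares 14 bases with mt-Nd5 on the opposite strand. The sources used here do not say if the libraries keep the strand. Counts of mt-Nd6 may therefore include reads from transcripts of the opposite strand, which was not tested. mt-Nd5 had 277488, 250870 and 285601 against 201489, 253012 and 239980, a log2 fold change of -0.23 ± 0.10 (SE; limma, adjusted p = 0.309). These 2 neighbours had the lowest log2 fold changes of all 96 members. mt-Nd2 and mt-Nd4 were at -0.19 and -0.14, mt-Nd1 at -0.11, mt-Nd4l at -0.07 and mt-Nd3 at -0.05.

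In complex III, mt-Cytb, the ubiquinol-oxidising cytochrome b, had 310860, 285676 and 313693 in Control and 262362, 287234 and 294032 in KC-Tie2, a log2 fold change of -0.11. In complex IV, whose 3 mitochondrial-genome subunits form the catalytic core, mt-Co1, which reduces oxygen, had 595055, 558100 and 602485 against 505483, 603695 and 588357, a log2 fold change of -0.05, and it was the most abundant member per kilobase at 372511. mt-Co2 was at -0.01 and mt-Co3 at 0.00 (95% interval -0.21 to 0.20). In complex V, mt-Atp8 had 20397, 19393 and 20527 against 15706, 18230 and 19702 (log2 fold change -0.18), and mt-Atp6, the proton channel, was at -0.07. The 2 genes overlap by 43 bases on the same strand, so reads there cannot be given to either alone. For mt-Co2, mt-Atp6, mt-Nd4l, mt-Co3 and mt-Nd3 between 32.9% and 48.3% of the summed normalized counts of gene and copies lay at the copies. Over all 13 genes the copies took 15.6% to 16.6% in Control and 15.4% to 16.1% in KC-Tie2.

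As shares of all normalized counts, mitochondrial-genome members took 9.28%, 8.95% and 9.41% of the library sum in Control and 8.21%, 9.25% and 8.95% in KC-Tie2, which overlap. Nuclear members took 1.12%, 1.06% and 1.11% against 1.15%, 1.21% and 1.15%. The ratio of the sums was 8.29, 8.43 and 8.45 in Control and 7.12, 7.67 and 7.81 in KC-Tie2, or 8.39 ± 0.09 and 7.53 ± 0.36 (SD, n = 3 each), without overlap. With the copies added to the mitochondrial-genome members it was 9.94, 10.04 and 10.01 against 8.49, 9.06 and 9.24, again without overlap. KC-Tie2 replicates 2 and 3 also lay below every Control library, so the separation did not rest on KC-Tie2 replicate 1.

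Summed levels of several kidney cell type markers also differed between the genotypes. The 10 proximal tubule markers summed to 358929 to 388206 in Control and 300894 to 349188 in KC-Tie2, lowest in KC-Tie2 replicate 1, the library that was also lowest for the mitochondrial-genome members. Of these 10 genes 8 were below 0 and 2 above, and 0 were called. The 5 thick ascending limb markers summed to 131900 to 140171 in Control and 145536 to 175091 in KC-Tie2, highest in KC-Tie2 replicate 2, the library that was highest for 40 nuclear members. In that list 3 genes were above 0 and 2 below, 1 had separated groups, and 0 were called. KC-Tie2 replicate 2 was also the highest library for the distal convoluted tubule, intercalated cell, podocyte and macrophage sums given below. The 5 collecting duct principal cell markers summed to 9041 to 11095 against 12822 to 16199, with all 5 above 0 and 0 called. The 5 intercalated cell markers did not overlap in sum either, at 4132 to 4742 against 4748 to 5372. Over all genes tested, 0.855% were called higher in KC-Tie2. Called markers were found in 3 lists, all higher in KC-Tie2 (limma, adjusted p under 0.05). They were 3 of the 3 neutrophil markers in the table (sum 8.40 to 17.3 against 58.1 to 145, with Ly6g and Retnlg not in the table), 2 of 5 macrophage markers (1482 to 2007 against 1967 to 2263) and 2 of 4 distal convoluted tubule markers (37079 to 43706 against 42717 to 49507). Sums overlapped for the 4 podocyte (7034 to 8000 against 7818 to 10468), 5 endothelial (6619 to 7213 against 6564 to 6929), 5 stromal (3575 to 5391 against 4301 to 5622) and 5 red cell markers (1474 to 2203 against 973 to 5079). In bulk RNA, fewer cells of a type and less RNA per cell cannot be told apart, and the part of these markers in the subunit values was not tested. The endothelial gene Tek, which encodes Tie2, had 1073, 1081 and 989 in Control and 934, 933 and 976 in KC-Tie2 (limma, adjusted p = 0.361), and these kidney values do not check the skin transgene.

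Fold change ran with gene length among the members. In the 78 nuclear members with a mean of at least 250 normalized counts, the log2 fold change and the log2 exon length had a Pearson r of -0.38 and a Spearman rho of -0.41 across genes. Genes of 1 tissue are not independent, so these are descriptions. Over the 9089 other nuclear protein-coding genes above that level the values were 0.02 and 0.04, and over the 1574 of those up to 2000 bases -0.07 and -0.07. By length class, the median of the members was 0.19 up to 500 bases (6 genes), 0.14 from 501 to 750 (19 genes), 0.08 from 751 to 1000 (14 genes), 0.07 from 1001 to 1500 (17 genes), 0.03 from 1501 to 2000 (12 genes), 0.02 from 2001 to 3000 (7 genes) and 0.12 above 3000 (3 genes), so the longest class did not follow the others. Other genes of the same classes had medians of 0.14 (15 genes), 0.07 (75 genes), 0.02 (152 genes), -0.01 (550 genes), -0.01 (782 genes), -0.02 (1761 genes) and 0.00 (5754 genes). Other genes up to 1000 bases thus had medians above 0 as well, lower than those of the members in each of these classes. Shares with every KC-Tie2 library above every Control library are given in the same order of classes. They were 66.7%, 47.4%, 35.7%, 17.6%, 8.33%, 14.3% and 33.3% in members. In other genes they were 40%, 21.3%, 15.8%, 13.3%, 12.02%, 11.4% and 10.4%. Short classes thus had the higher shares in other genes too, and from 1501 to 2000 bases the members had the lower share. With a length trend removed from every library the nuclear median was 0.06 and Atp5k was at 0.17. The accessory, small and membrane subunits are among the short members, as are those of complex IV and the c ring. Median exon length was 861 bases for the accessory and 1623 for the core subunits of complex I. It was 535 and 1587 for the small and core subunits of complex III. Nuclear members of complex IV had a median of 659 bases and the c ring 731.

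**Figure D5:**
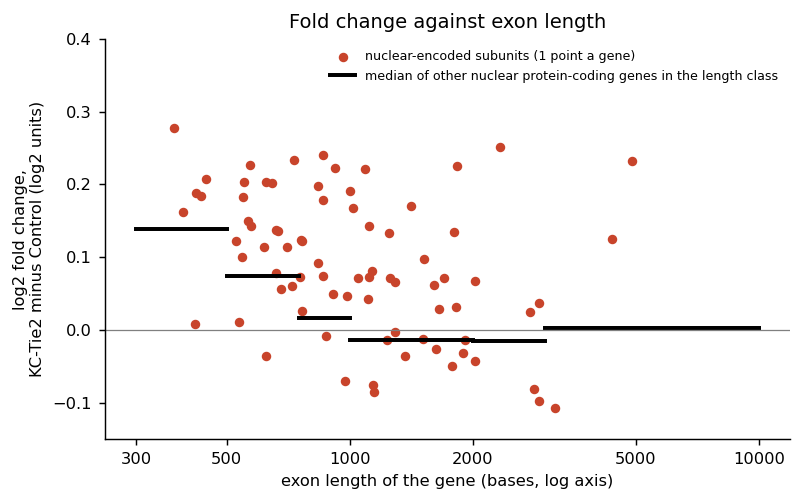
Log2 fold change (KC-Tie2 minus Control, vertical axis) against exon length in bases (log axis) for the 78 nuclear subunits with a mean of at least 250 normalized counts, 1 point a gene. Black bars are medians of other nuclear protein-coding genes in the same length classes, from 0.14 up to 500 bases to -0.01 at 1001 to 2000 bases.

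Medians of the lists of genes that build and serve the chain lay between -0.07 and 0.03, beside 0.09 for the nuclear subunits. The background for the counts of calls in these lists is 1.69% of all genes tested. The lists hold longer genes, with median exon lengths of 1380.5 to 5086 bases against 934 for the nuclear subunits. Length and function therefore cannot be told apart in this comparison. The assembly factors had medians of -0.05 for complex I (17 genes), -0.02 for complex II (4 genes), -0.02 for complex III (7 genes), -0.05 for complex IV (23 genes) and -0.01 for complex V (5 genes), with 0 called in each. Among them, Uqcc2, an assembly factor of complex III, had 329, 343 and 314 in Control and 407, 433 and 436 in KC-Tie2, a log2 fold change of 0.37 ± 0.09 (SE; limma, adjusted p = 0.0736). Cox15, which makes the heme A of complex IV, had 1558, 1462 and 1720 against 1346, 1308 and 1354, a log2 fold change of -0.24 (limma, adjusted p = 0.138). Ecsit of complex I was at -0.16, Sdhaf1 of complex II at -0.16 and Fmc1 of complex V at 0.14.

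In the list of subunits and carriers outside the name rule, 0 of 27 were called, and the median was -0.05. Slc25a4, the carrier that exchanges ADP for ATP across the inner membrane, had 3743, 3425 and 3577 in Control and 4279, 5107 and 4308 in KC-Tie2, a log2 fold change of 0.35 ± 0.08 (SE; limma, adjusted p = 0.0599). It passed the threshold in 6 of the alternatives, among them TMM scaling and voom. Cytochrome c, Cycs, was at -0.05, and the ATP synthase inhibitor Atpif1 at 0.10.

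The machinery that copies and transcribes the mitochondrial genome had 0 of 30 genes called, 21 below 0 and a median of -0.07, with Fastkd1, an RNA-binding protein of the mitochondrion, at -0.22. The main packaging and transcription factor of that genome, Tfam, had 746, 622 and 759 against 633, 663 and 772, a log2 fold change of -0.04. Regulators of mitochondrial biogenesis had 0 of 17 called and a median of -0.04. Ppargc1a, the coactivator PGC-1 alpha, had 3207, 2986 and 3734 in Control and 3574, 3853 and 3723 in KC-Tie2, a log2 fold change of 0.17 (limma, adjusted p = 0.360). Its partner Esrra was at 0.06. Gabpa, which binds the ETS motif counted above, was at -0.24 (limma, adjusted p = 0.185), and its locus shares 701 bases with Atp5j on the opposite strand.

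The pyruvate dehydrogenase and citric acid cycle list had 0 of 18 called and a median of 0.00, with Mdh2, the mitochondrial malate dehydrogenase, at 0.19. The crista list had 0 of 13 called and a median of 0.03, with Chchd6, a subunit of the crista junction complex, at 0.34. The mitochondrial ribosome makes the 13 proteins of the mitochondrial genome, and its list had a median of 0.00. Beside a background of 1.69% of all genes tested, 1 of its 78 genes was called. That gene was Mrps6, a protein of the small subunit (mm39 chr16:91855158-91909115), with 1105, 1119 and 1176 in Control and 1561, 1549 and 1354 in KC-Tie2. It rose by 0.39 ± 0.07 (log2 fold change, SE; limma, adjusted p = 0.0278). The call was lost without Control replicate 1, Control replicate 3, KC-Tie2 replicate 1 or KC-Tie2 replicate 2, at log2 fold changes of 0.37, 0.42, 0.35 and 0.36. The Mrps6 locus contains Slc5a3 on the same strand over 29152 bases, so the 2 genes can share reads, and Slc5a3 had a log2 fold change of 0.06.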

How the data were processed

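The deposited expression table gives 1 signal value per gene and library, a normalized gene count. Partek 12.5.0, STAR, DESeq2 and build mm39 are named, per the submitters' processing notes; the sources used here do not give the step of each. Each library had a step (0.8259 to 1.3532) whose whole multiples matched, within 0.01 of a step, 68.3% to 71.2% of its values under 60. Values were therefore read as estimated counts scaled by a factor of that library; whole reads could not be restored. The deposited second table gives the authors' p-value, FDR, ratio and a signed fold-change score, per the file headers against a group headed WT, read as Control. No deposited value column was left unused for lack of a sample.

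Genotype was fitted with limma 3.58.1 (R 4.3.3) on log2(value + 1), with trend and robust, over 17539 genes with a mean of at least 10. Tests were two-sided, with residual degrees of freedom 4 and Benjamini-Hochberg adjustment over all genes tested, and fold changes of low genes are understated on this scale. On simulated data the fit returned the median fold changes of planted genes. The planted changes were larger than most of those described here, so the simulation cannot show if changes of that smaller size are found. Copies were found with BLAST 2.17.0. Exon lengths came from GENCODE M21. Gene positions are mm39 as deposited, promoters GRCm38.p6. The alternatives were pseudocounts, filters, scalings, fits with a replicate block, with library weights or without robust eBayes, and each library left out, and, chosen after seeing the data, voom, copies added, the length trend removed and leaving out both libraries with high adipocyte markers.

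Members and lists were chosen with earlier results of these data known. Named were all mitochondrial-genome members, the 3 nuclear members of each complex with the largest absolute log2 fold change at a mean of at least 50, paralogous isoforms, the Sdh genes, Atpif1, Ppargc1a, Tfam, Esrra, Cycs and the leading gene of each list. Other members, copies and Tek were named after their values were seen.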

Additional observations from a re-analysis of the deposited data

How the results depend on the processing

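Counts of called members were 0 higher and 0 lower in the fit as reported. The higher count was 1 with quantile normalization (Cox6a1), 1 with library weights (Atp5k), and 0 to 1 when each library was left out (1 without KC-Tie2 replicate 3, Cox7a1); the lower count was 0 in all 20 alternatives. The nuclear median log2 fold change ran from 0.04 to 0.15 and stayed above 0. The mitochondrial-genome median was 0.00 with quantile normalization and -0.15 to -0.03 when each library was left out. Quantile normalization sets values from ranks, so it can remove a shift shared by these abundant genes. With the replicate block 0 members were called, and the medians were 0.09 and -0.11. Libraries with the same replicate number did not deviate together (correlations 0.178, -0.096 and 0.017), so the numbers name samples only; over all genes the block gave 581 calls in place of 297. Other counts of calls over all genes were 549 with library weights, 48 to 682 when each library was left out and 20 without both libraries with high adipocyte markers. In the lists, complex III assembly factors had 1 call with library weights. Subunits and carriers outside the name rule had 1 with TMM scaling, quantile normalization, scaling to the nuclear sum, library weights and voom, and 0 to 2 when each library was left out. Regulators had 0 to 1 when each library was left out, the citric acid cycle list 1 with quantile normalization, and the mitochondrial ribosome 0 to 1 when each library was left out and 0 without both libraries with high adipocyte markers. Sign changes touched 15 named genes, none of them called. With quantile normalization, mt-Nd1 was at 0.106, mt-Nd3 at 0.065, mt-Nd4l at 0.074, mt-Co2 at 0.215, mt-Co3 at 0.039, mt-Atp6 at 0.060, Cox8b at -0.255 and Sdhd at 0.022. With scaling to the nuclear sum, mt-Co2 was at 0.0198, mt-Co3 at 0.029 and Sdhd at 0.0202, and voom gave 0.0198, 0.029 and 0.0201. TMM scaling put mt-Co3 at 0.0008 and library weights at 0.012. Cox8b was at -0.206 with a pseudocount of 5, -0.978 with library weights and -0.104 with the length trend removed. Without both libraries with high adipocyte markers, mt-Nd3 was at 0.085, mt-Nd4l at 0.0038, mt-Co1 at 0.0395, mt-Co2 at 0.029, mt-Co3 at 0.076, mt-Atp6 at 0.018, Cox7a2l at 0.015, Ndufa4 at 0.057, Sdhd at 0.039, Sdhaf1 at 0.039, Tfam at 0.058 and Cycs at 0.0061. When each library was left out, log2 fold changes ran, for mt-Nd3 -0.135 to 0.041, for mt-Co1 -0.101 to 0.027, for mt-Co2 -0.044 to 0.036, for mt-Co3 -0.071 to 0.071, for Cox7a2 -0.031 to 0.156, for Cox8b -1.601 to 1.037, for Ndufa4 -0.135 to 0.025, for Sdhd -0.072 to 0.027, for Tfam -0.132 to 0.019 and for Cycs -0.176 to 0.051. The causes were not tested. Depth limits the isoforms under 100 normalized counts, where 1 estimated count is worth 0.8259 to 1.3532.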

Other observations

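The 2 ribosomal RNAs of the mitochondrial genome are not subunit genes and were measured beside them. mt-Rnr1 had 41936, 41452 and 39538 normalized counts in Control replicates 1 to 3 and 40278, 43931 and 44197 in KC-Tie2 replicates 1 to 3. mt-Rnr2 had 1.12e+06, 1.01e+06 and 1.12e+06 against 1.05e+06, 1.18e+06 and 1.24e+06. The groups overlapped for both, and KC-Tie2 replicate 1 was the lowest KC-Tie2 library for both, as for the 13 protein-coding genes.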
